A study of Homo sapiens with 18 samples.

Results

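Proline and arginine are the amino acids that alternate in the 102xPR repeat, and 8 genes that make or use them were followed in HEK293T cells carrying that repeat. The list was chosen with earlier results of these data known. Its genes were taken by symbol from the count table: ALDH18A1, PYCR1, PYCR3, OAT, ASS1, ASL, ARG2 and PRODH, 8 of 28394 genes. All 8 had a row in the table, and 7 of them passed the filter on low counts, PRODH being the exception. Of the 7, PYCR3 passed with a group mean under 1 CPM (the count scaled to the total of its library) in every group.

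HEK293T is an established line of human embryonic kidney cells. Poly(A) RNA was sequenced from 3 stable lines, each holding a doxycycline-inducible construct that encodes GFP, the P2A peptide and a further sequence: the fluorescent protein ChFP as negative control, poly-adenylate, or 102xPR. The study asked if poly-adenylate and poly-PR stalls alter gene expression in the same way. Uninduced ChFP, uninduced poly-adenylate and uninduced 102xPR cells had no doxycycline, and the 3 induced groups had 500 ng/μl, the dose as the labels print it, for 48 h. Each of the 6 groups had 3 libraries, 18 in all. The lines differ in construct as well as in origin, the labels do not say whether a line is 1 clone, and the replicates are not said to be separate cultures, so the p-values reflect spread among the libraries, possibly technical, and nothing beyond it.

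Proline is made from glutamate. ALDH18A1 (also known as P5CS) reduces glutamate to an intermediate that closes to pyrroline-5-carboxylate, and the PYCR reductases turn this into proline, PYCR1 in mitochondria and PYCR3 in the cytosol. OAT links the same intermediate to ornithine, PRODH takes proline back towards glutamate in mitochondria, ASS1 and ASL build arginine from citrulline and aspartate, and ARG2, the mitochondrial arginase, splits arginine into ornithine and urea. Several of these genes are known targets of the stress factor ATF4 or of MYC in cultured cells.

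Depth ran from 15020739 to 27331102 counts per library. Libraries fell into sets of 10 and 8 on the second principal component (7.61% of variance) in a way that cut across the groups: the larger set held replicates 1 and 2 of induced ChFP, all of uninduced 102xPR, replicate 3 of induced 102xPR, replicate 1 of uninduced poly-adenylate and all of induced poly-adenylate. The mitochondrially encoded share of counts was 3.37 to 5.59% in the larger set and 4.96 to 7.67% in the smaller. The labels give no reason for the split. All of uninduced ChFP and 2 of 3 libraries of induced 102xPR and of uninduced poly-adenylate cells were thus in the smaller set, so that in each line induction and set move together to a large part. Values within the larger set are given beside the results they touch; there induced 102xPR and uninduced poly-adenylate cells have 1 library each, which is assumed to vary like the other groups. Of 6 markers of HEK293T (PAX2, LHX1, NEFM, VIM, KRT18 and KRT8) at least 5 were detected in every group, and they summed to 708 to 733 CPM in induced 102xPR libraries against 558 to 651 CPM in the other 15. The markers did not move together: of 5 tested in the 102xPR line 1 rose, 1 fell and 3 did not pass. Of all tested genes 67.3% were called there. The 4 blood cell markers summed to at most 0.316 CPM in any library. Hepatocytes and fibroblasts also run parts of these pathways. The 5 hepatocyte markers summed to 23.9 to 27.1 CPM in induced 102xPR cells and to 18.01 to 25.4 CPM elsewhere, most of it CPS1, with the defining marker ALB at a mean of at most 0.998 CPM in any group. Of the 2 hepatocyte markers tested in the 102xPR line 1 rose, where 33.8% of all tested genes did. CPS1 was the marker that did not pass, at a mean of 20.9 CPM uninduced and 23.8 CPM induced. The median log2 fold change of the 2 was 2.92, so the other marker, at a low level, rose by more than that. The 4 fibroblast markers summed to 14.8 to 15.6 CPM in induced 102xPR cells against 22.8 to 31.5 CPM elsewhere. Of the 3 tested in the 102xPR line 3 fell, with a median log2 fold change of -1.45, where 33.4% of all tested genes fell. The part of these cells in the results was not tested.

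On the scale of CPM per kilobase of exon, the mean level in uninduced ChFP cells was highest for OAT at 101, followed by PYCR1 at 81.9, ALDH18A1 at 58.7, ARG2 at 26.2, ASS1 at 22.4 and ASL at 7.55. PYCR3 stood at 0.122 and PRODH at 0.00544. The order changed in induced 102xPR cells, where the level of ALDH18A1 (52.7) lay beside that of PYCR1 (52.3). PYCR3, a proline-making enzyme, and PRODH, which breaks proline down, were thus both far below the other 6.

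The available promoters of the genes that moved were read for sequence elements bound by the named regulators, since ATF4, its partner DDIT3 and MYC themselves changed in these cells. RefSeq promoter windows (GRCh38.p14, 250 bases before to 50 after the start, 5′ to 3′ on the gene's strand) were matched for 5 of the 8 genes, with 6 sequences because ASS1 has 2 starts. PYCR1, PYCR3 and PRODH had no window in the reference, so their promoters were not read. Shown are the windows that hold a match, and that of OAT for contrast as a gene with a large change and no match. The windows of ASL and of the first ASS1 start also held no match and are not shown. Capitals mark matches, on either strand, to the E-box CACGTG or to the cAMP response element TGACGTCA, which do not overlap one another. ALDH18A1 lies at chr10:95656662-95656961 on the minus strand, OAT at chr10:124418874-124419173 on the minus strand, the second ASS1 start at chr9:130444711-130445010 on the plus strand and ARG2 at chr14:67619670-67619969 on the plus strand.
ALDH18A1: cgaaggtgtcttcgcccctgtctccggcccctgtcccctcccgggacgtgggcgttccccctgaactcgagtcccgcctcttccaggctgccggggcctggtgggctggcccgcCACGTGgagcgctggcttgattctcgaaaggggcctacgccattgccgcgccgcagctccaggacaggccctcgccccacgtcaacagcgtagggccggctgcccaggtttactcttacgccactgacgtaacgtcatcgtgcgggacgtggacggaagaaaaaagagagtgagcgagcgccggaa
OAT: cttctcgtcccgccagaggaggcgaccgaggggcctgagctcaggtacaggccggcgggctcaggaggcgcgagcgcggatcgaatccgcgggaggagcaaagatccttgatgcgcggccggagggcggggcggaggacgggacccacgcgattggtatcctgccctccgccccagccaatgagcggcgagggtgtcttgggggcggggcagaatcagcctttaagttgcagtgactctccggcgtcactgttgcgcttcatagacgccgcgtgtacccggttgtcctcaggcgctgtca
ASS1: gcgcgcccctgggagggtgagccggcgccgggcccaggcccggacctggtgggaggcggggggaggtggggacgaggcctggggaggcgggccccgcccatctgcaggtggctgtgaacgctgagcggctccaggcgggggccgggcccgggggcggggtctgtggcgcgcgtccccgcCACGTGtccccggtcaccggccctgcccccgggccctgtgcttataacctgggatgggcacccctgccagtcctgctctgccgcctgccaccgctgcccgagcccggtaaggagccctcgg
ARG2: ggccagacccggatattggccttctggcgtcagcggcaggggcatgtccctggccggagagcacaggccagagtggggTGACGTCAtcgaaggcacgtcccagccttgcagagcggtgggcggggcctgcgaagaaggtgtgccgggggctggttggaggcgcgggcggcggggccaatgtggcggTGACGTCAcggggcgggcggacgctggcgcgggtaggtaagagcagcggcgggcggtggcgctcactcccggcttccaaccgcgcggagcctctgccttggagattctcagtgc

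The E-box, the element MYC binds, began 136 bases before the start of ALDH18A1 and 71 bases before the second start of ASS1. It is held by 7.26% of 35114 promoter windows of this length. ARG2 held TGACGTCA at 172 and at 64 bases before its start, an element found in 1.85% of the windows. The composite element TGATGNAA, through which ATF4 acts with a C/EBP partner, was in none of the 6 windows and in 3.62% of all. These are matches of letters only.

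ALDH18A1, which catalyses the first committed step of proline synthesis (gene at chr10:95605941-95656711), had the smallest change of the 6 that were called. Its levels in uninduced 102xPR cells were 192, 198 and 199 CPM in replicates 1 to 3, and in induced cells 179, 176 and 176 CPM. The ranges did not overlap, and the log2 fold change was -0.15 ± 0.04, adjusted p = 0.00354 (edgeR's quasi-likelihood test, Benjamini-Hochberg over 15447 genes, as for every adjusted p below). In the ChFP line the levels went from 196, 195 and 201 CPM to 168, 179 and 183 CPM, a fall of about the same size (-0.16 ± 0.04, adjusted p = 0.0496) that was not called without any 1 of ChFP uninduced replicates 1, 2 or 3 or ChFP induced replicates 1 or 2, the adjusted p then reaching up to 0.262, nor with library set as a covariate (-0.12, adjusted p = 0.209). The call was lost in 10 of 15 alternative settings in all. In the poly-adenylate line 177, 188 and 188 CPM became 186, 184 and 191 CPM, with overlapping ranges and a log2 fold change of 0.02 ± 0.04. By mean level the order was uninduced ChFP (197 ± 3.46 CPM), uninduced 102xPR (196 ± 3.52 CPM), induced and uninduced poly-adenylate, induced 102xPR (177 ± 1.36 CPM) and induced ChFP (177 ± 8.10 CPM). Neighbours in that order overlapped library by library, except that uninduced 102xPR libraries all lay above the induced poly-adenylate ones.

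PYCR1, the mitochondrial reductase that completes proline synthesis (chr17:81932391-81937300), fell the most of the 7 tested. Its levels were 218, 206 and 199 CPM in uninduced 102xPR cells and 113, 114 and 133 CPM after induction. The 3 induced libraries lay below each of the other 15 in the study, of which the lowest read 175 CPM. The induced level was 0.58 times the uninduced one (log2 fold change -0.79 ± 0.07, adjusted p = 2.11e-09), and -0.65 within the larger library set. Induced replicates 1 and 2, in the smaller set, read lower than induced replicate 3, in the larger. With the other constructs it was not called: ChFP cells held 182, 190.5 and 193 CPM uninduced and 187, 199 and 175 CPM induced (-0.01 ± 0.07), and poly-adenylate cells 243, 209 and 199 CPM and 241, 233 and 223 CPM (0.10 ± 0.07), with overlapping ranges in both lines. With library set as a covariate PYCR1 was at -0.15 (adjusted p = 0.142) in ChFP cells, and with the replicate block added to it the fall was called (-0.15, adjusted p = 0.0431). In poly-adenylate cells the covariate gave -0.04. Part of the exon length of PYCR1 (19.6%) is shared with an antisense gene, AC145207.4, and the strand setting of the counting is not given in the sources used here.

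PYCR3, the cytosolic reductase, was read by so few counts that 1 library set its value. Uninduced 102xPR libraries had 9, 11 and 12 counts and induced ones 0, 2 and 46. The uninduced ChFP and poly-adenylate libraries had 7 to 11 counts, and their induced libraries 1 to 12. With all libraries the log2 fold change in the 102xPR line was 0.71 ± 0.93, adjusted p = 0.516. Without induced replicate 3 it was -3.21, adjusted p = 0.00102, in the opposite direction, and within the larger set, where replicate 3 is the only induced library, it was 2.30. The 46 counts of that library stood above every other, and the direction depended on it.

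PRODH, proline dehydrogenase, had at most 3 counts in any group. Summed over 3 libraries it had 1 count in uninduced ChFP, 2 in induced ChFP, 0 in uninduced and 1 in induced poly-adenylate, 3 in uninduced 102xPR and 0 in induced 102xPR cells. A sum of 0 allows up to 3 counts, or 0.0465 CPM in induced 102xPR cells, by counting error only, so no difference was detectable at this depth.

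OAT, the mitochondrial aminotransferase that joins ornithine to the proline branch (chr10:124397303-124418923), went from 216, 223 and 231 CPM in uninduced to 134, 142 and 153 CPM in induced 102xPR cells. All 3 induced libraries were below the other 15, whose lowest was 193 CPM. The level fell to 0.64 of the uninduced one (-0.65 ± 0.05, adjusted p = 3.99e-11), and by 0.56 on the log2 scale within the larger set. In ChFP cells the values were 208, 214 and 209 CPM uninduced and 194, 204 and 193 CPM induced. These did not overlap but did not pass the test (-0.09 ± 0.05, adjusted p = 0.280), where 24.3% of all tested genes had ranges that did not overlap. With library set as a covariate and the replicate block together, the fall of OAT in ChFP cells was called (-0.16, adjusted p = 0.0126). In poly-adenylate cells 205, 208 and 199 CPM became 201, 209.5 and 219 CPM (0.04 ± 0.05), with overlap.

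Arginine synthesis runs through ASS1, argininosuccinate synthase (chr9:130444707-130501274), and ASL, the lyase that releases arginine (chr7:66075819-66093576). ASS1 read 45.8, 43.2 and 38.1 CPM in uninduced and 33.5, 31.00 and 30.4 CPM in induced 102xPR cells (-0.43 ± 0.08, adjusted p = 5.44e-05). The induced libraries again lay below the other 15. In poly-adenylate cells it read 52.6, 49.2 and 48.7 CPM uninduced and 55.3, 44.8 and 42.4 CPM induced (-0.08 ± 0.08), the induced libraries being the most widely spread of the 6 groups. In ChFP cells it read 44.9, 46.2 and 47.9 CPM uninduced and 48.7, 49.03 and 50.6 CPM induced, which did not overlap and did not pass (0.10 ± 0.08, adjusted p = 0.514).

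ASL had 19.4, 19.3 and 19.4 CPM in uninduced 102xPR cells and 10.8, 11.00 and 14.03 CPM in induced ones. It fell to 0.61 of the uninduced level (-0.70 ± 0.10, adjusted p = 8.32e-07). Replicate 3 was the highest of the induced libraries and still below the lowest of the other 15 (16.2 CPM), and within the larger set, where it is the only induced library, the log2 fold change was -0.47. Induction moved ASL from 17.04, 17.1 and 18.3 CPM to 19.4, 16.2 and 18.5 CPM in ChFP cells and from 20.5, 18.5 and 16.4 CPM to 20.02, 18.8 and 17.8 CPM in poly-adenylate cells, overlapping in both (0.05 ± 0.10 and 0.03 ± 0.09). Its exons overlap a protein-coding gene of the same strand, AC068533.4, over 24.3% of their length.

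ARG2, which consumes arginine and yields ornithine, the substrate of OAT (chr14:67619920-67651708), had 54.2, 51.6 and 53.3 CPM in uninduced and 39.4, 41.2 and 40.5 CPM in induced 102xPR cells. The induced libraries were tightly grouped and below the other 15, of which the lowest was 51.2 CPM. The change was -0.39 ± 0.05, adjusted p = 1.03e-06, and -0.39 within the larger set. ChFP cells went from 52.1, 54.5 and 54.4 CPM to 51.2, 51.5 and 55.1 CPM (-0.03 ± 0.05) and poly-adenylate cells from 60.2, 53.6 and 53.5 CPM to 53.1, 51.7 and 55.1 CPM (-0.07 ± 0.05), with overlapping ranges. As 44.2% of the exon length of ARG2 is shared with VTI1B on the opposite strand, its counts are uncertain; VTI1B itself changed by -0.25 ± 0.06, adjusted p = 4.06e-04, in the same comparison.

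**Figure D1:**
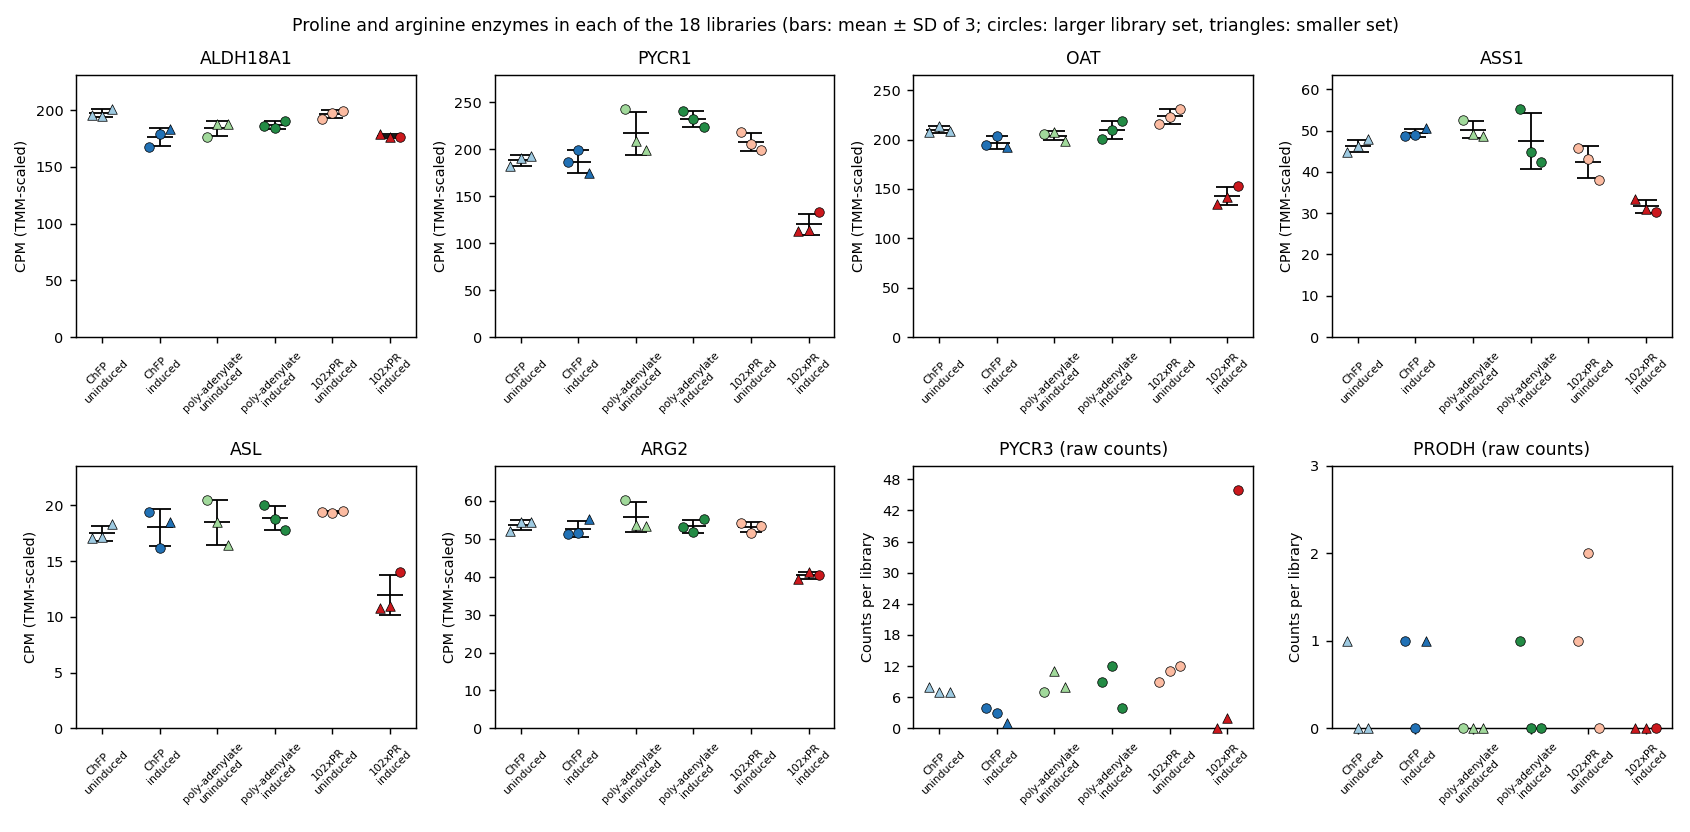
Level of each gene in every library, by group on the horizontal axis, in CPM (raw counts for PYCR3 and PRODH); points are libraries, circles the larger and triangles the smaller library set, and bars the mean ± SD of 3. In PYCR1, OAT, ASS1, ASL and ARG2 the 3 induced 102xPR libraries lie below the other 15, and in ALDH18A1 they do not.

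Over the 102xPR line, 6 of the 7 tested genes fell on induction and 0 rose, where 67.3% of the 15447 genes tested were called, 33.8% of them higher and 33.4% lower as shares of all tested. CPM ranges of induced and uninduced libraries did not overlap for 70% of the genes. The median log2 fold change of the 7 was -0.43, against -0.01 over all genes tested. For 5 of the 7 the induced libraries were all below the other 15 in the study, which held for 25.4% of genes. PYCR1 had a lower log2 fold change than 92.1% of tested genes, ASL than 89.7%, OAT than 87.8%, ASS1 than 78.0%, ARG2 than 76.3% and ALDH18A1 than 60.2%. The mRNA of genes for arginine synthesis (ASS1 and ASL) and for arginine breakdown (ARG2) changed in the same direction, downward. In bulk RNA, fewer cells of a kind and less RNA per cell cannot be told apart.

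In the poly-adenylate line 0 of 7 were called, where 1.08% of genes were, and 0 of 7 had an unadjusted p under 0.05; DESeq2 also called 0. For the 6 genes other than PYCR3, the log2 fold changes ran from -0.08 to 0.10, and the 95% intervals were -0.04 to 0.24 for PYCR1 and -0.06 to 0.14 for OAT, which leave out falls of the size seen in the 102xPR line. In the ChFP line 1 of 7 was called, ALDH18A1, which fell, where 2.01% of genes were called and 0.887% were called lower.

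The differences between these responses were tested directly. Set against the ChFP response, 5 of 7 fell further in the 102xPR line, where 58.3% of genes differed and 30.3% were lower: PYCR1 by 0.78 ± 0.10 (adjusted p = 9.13e-07), ASL by 0.75 ± 0.14 (5.43e-05), OAT by 0.55 ± 0.07 (3.32e-07), ASS1 by 0.52 ± 0.11 (3.45e-04) and ARG2 by 0.36 ± 0.08 (3.10e-04) on the log2 scale. ALDH18A1 did not pass, with a difference of 0.01 ± 0.06 and a 95% interval of -0.11 to 0.14. With library set as a covariate the differences from the ChFP response were -0.50 for PYCR1, -0.52 for ASL, -0.46 for OAT, -0.53 for ASS1 and -0.33 for ARG2, all 5 still called. Against the poly-adenylate response, 6 of 7 fell further, where 58.4% of genes differed and 29.6% were lower. The largest of these was PYCR1 (-0.89 ± 0.10, adjusted p = 1.39e-07), then ASL (-0.73 ± 0.13) and OAT (-0.69 ± 0.07), with smaller ones for ASS1 (-0.35 ± 0.11), ARG2 (-0.33 ± 0.08) and ALDH18A1 (-0.17 ± 0.06, adjusted p = 0.0190). Within the larger set, where this rests on 1 induced 102xPR and 1 uninduced poly-adenylate library, ASS1 (-0.34, adjusted p = 0.192), ASL (-0.35, 0.0856) and ARG2 (-0.22, 0.0959) did not pass, and ALDH18A1 was lost without 102xPR uninduced replicate 3 (adjusted p = 0.0609). The poly-adenylate and ChFP responses differed in 0 of 7, where 0.0259% of genes differed; 1 of the 7, ALDH18A1, had an unadjusted p under 0.05 (0.18 ± 0.06, adjusted p = 0.270), and DESeq2 called 0. The responses share libraries, so the comparisons are not independent of one another.

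**Figure D2:**
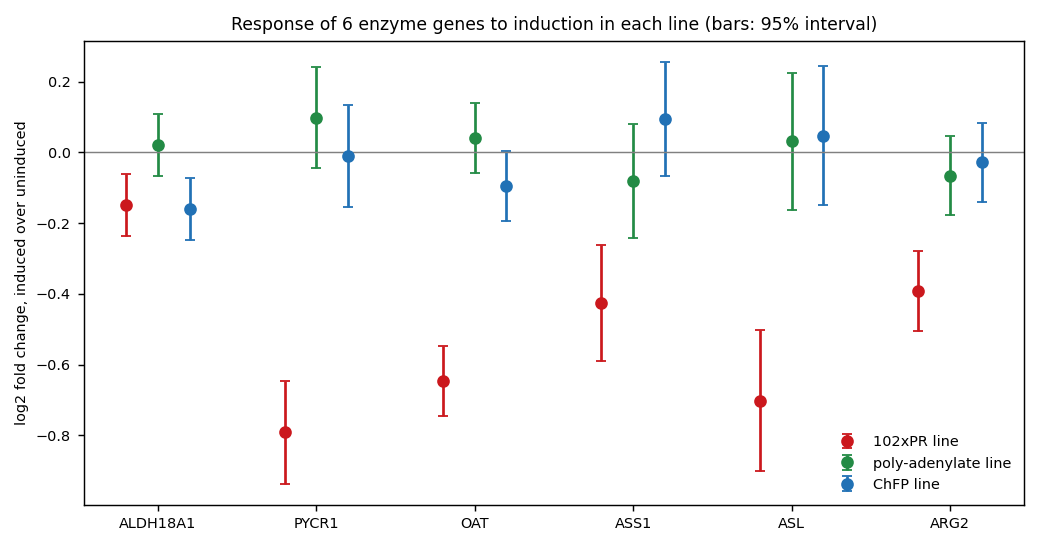
Log2 fold change of induced over uninduced cells (vertical axis) for 6 genes (horizontal axis) in the 102xPR, poly-adenylate and ChFP lines, with 95% intervals of the fit. The 102xPR values of PYCR1, OAT, ASS1, ASL and ARG2 lie apart from both other lines, while for ALDH18A1 the 102xPR value (-0.15) lies beside the ChFP value (-0.16).

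Compared directly with induced ChFP cells, induced 102xPR cells had lower ASS1 (-0.64 ± 0.08, adjusted p = 2.04e-07), PYCR1 (-0.64 ± 0.07, adjusted p = 6.19e-08), ASL (-0.60 ± 0.10), OAT (-0.46 ± 0.05) and ARG2 (-0.38 ± 0.06), 5 of 7 where 66.8% of genes were called and 33.9% were lower. ALDH18A1 was level between them (0.01 ± 0.04, 95% interval -0.08 to 0.09). Induced poly-adenylate cells had more PYCR1 than induced ChFP cells (0.31 ± 0.07, adjusted p = 0.0381), 1 of 7 where 0.939% of genes were called and 0.609% were higher. That call was lost without ChFP induced replicate 1 or 3 or without poly-adenylate induced replicate 1, 2 or 3 (adjusted p of up to 0.179) and with library totals in place of TMM (0.0751), though not within the larger set (0.27, adjusted p = 0.0263). Before induction, 0 of 7 differed between 102xPR and ChFP cells, where 12.2% of genes did, and 0 of 7 between poly-adenylate and ChFP cells, where 0.104% did, 0.0971% being higher. At an unadjusted p under 0.05 these counts were 0 and 2, the latter being ALDH18A1 (-0.10 ± 0.04, adjusted p = 0.445) and PYCR1 (0.20 ± 0.07, adjusted p = 0.342), and DESeq2 called 0 in both. The mean level of PYCR1 was highest in induced (232 ± 8.63 CPM) and uninduced (217 ± 23.2 CPM) poly-adenylate cells, then uninduced 102xPR (208 ± 9.60 CPM), uninduced ChFP (188 ± 5.95 CPM) and induced ChFP cells (187 ± 11.9 CPM), and neighbours overlapped except uninduced 102xPR and uninduced ChFP, whose ranges did not overlap for 38.8% of genes. OAT was highest in uninduced 102xPR cells (224 ± 7.53 CPM), above every uninduced ChFP library (210.3 ± 3.27 CPM). The other groups overlapped their neighbours down to induced ChFP (197 ± 6.16 CPM). All uninduced 102xPR libraries were in the larger library set and all uninduced ChFP libraries in the smaller. Line and set thus cannot be told apart between these groups. Their log2 differences were 0.14 for PYCR1 and 0.09 for OAT, and -0.07 and 0.02 with library set as a covariate. For ASS1, ASL and ARG2 the 5 groups other than induced 102xPR overlapped their neighbours throughout, with group means of 42.4 to 50.2, 17.5 to 19.4 and 52.6 to 55.8 CPM.

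Ratios of counts within a library do not depend on scaling between libraries, and their shifts between groups show unequal change. The log2 ratio of PYCR1 to ALDH18A1, the last and first enzymes of the route, was 0.18, 0.06 and 0.00 in uninduced and -0.66, -0.63 and -0.40 in induced 102xPR libraries. In the other 15 libraries it ran from -0.11 to 0.46, so the induced 102xPR libraries stood below them all. The shift was wider against ASNS, the asparagine synthetase that ATF4 induces, from 0.97 ± 0.03 to -0.63 ± 0.07. The ratio of ASL to ASS1 was -1.63, -1.49 and -1.12 in the induced 102xPR libraries, of which replicate 1 lay just below the -1.60 to -0.97 of the other 15 and replicates 2 and 3 lay within it. These ratios are described without a test; ASNS was chosen as a partner after its values were seen.

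**Figure D3:**
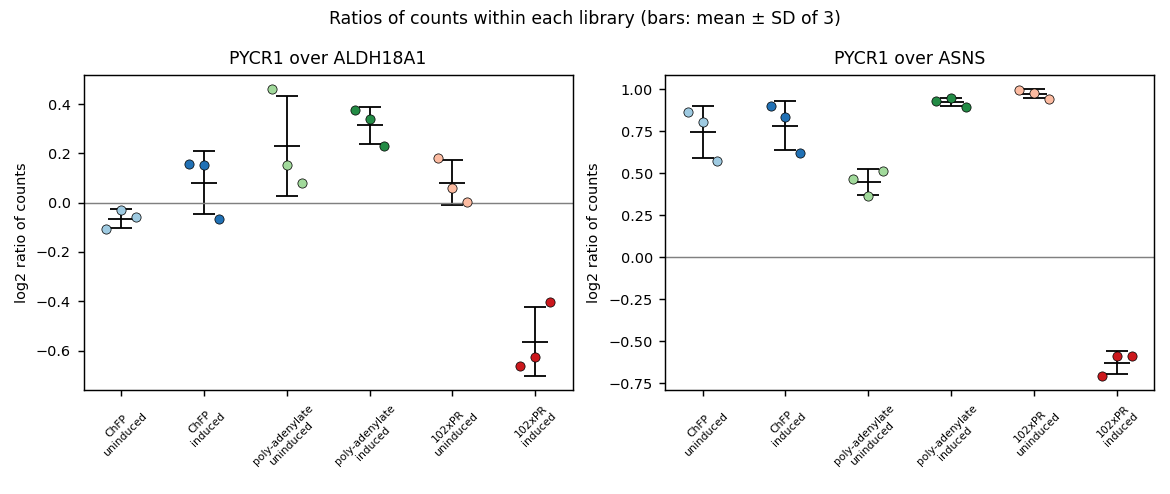
Log2 ratio of counts of PYCR1 to ALDH18A1 and ASNS (vertical axes) in each library, by group, with mean ± SD of 3. Both ratios are lowest in induced 102xPR cells, and that to ASNS lies at -0.59 or lower in them and at 0.36 or higher in the other 15 libraries.

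Of 10 tested genes of the proline and glutamate side, 6 fell in the 102xPR line, 0 rose and 4 did not pass (median log2 fold change -0.37). This is 60% called, where 67.3% of all tested genes were called, 33.4% lower and 33.8% higher. They included GLUD1, glutamate dehydrogenase (-0.32 ± 0.04, adjusted p = 1.63e-07), ALDH4A1, which turns the proline intermediate into glutamate (-0.66 ± 0.09, adjusted p = 4.01e-07), and PEPD, which frees proline from dipeptides (-0.47 ± 0.06, adjusted p = 7.31e-07). PRODH2 did not pass the filter. P4HA3, counted among the 6 that fell, was below 1 CPM in all groups, with 30 counts summed over uninduced and 9 over induced 102xPR libraries. Its call was lost in 4 of 14 alternative settings, each leaving out 1 library (adjusted p of up to 0.0878). In the poly-adenylate and ChFP lines 0 of the 10 were called.

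Among 8 tested genes of the urea cycle, nitric oxide and creatine synthesis, 4 fell, 1 rose and 3 did not pass, or 62.5% called against the same 67.3%. GAMT, which completes creatine, fell from 65.7 to 41.1 CPM (-0.68 ± 0.11, adjusted p = 1.97e-05), with NAGS (-0.67 ± 0.21, adjusted p = 0.00768) and DDAH1 (-0.15 ± 0.05, adjusted p = 0.0109) below it. The fourth, AGMAT (-0.36 ± 0.16, adjusted p = 0.0457), lost its call in 10 of 16 alternative settings, among them DESeq2 (0.0822), library set as a covariate (-0.09, 0.644) and the removal of 102xPR uninduced replicates 2 or 3 or of induced replicates 1 or 2 (up to 0.177); it was named after its values were seen. The call on DDAH1 was lost without 102xPR induced replicate 3 (adjusted p = 0.0665) and that on NAGS with library set as a covariate (0.112). GATM, which transfers the amidino group of arginine to glycine, was the 1 that rose (1.73 ± 0.41, adjusted p = 7.31e-04), from 0.247 to 0.859 CPM. ARG1, OTC, NOS1 and NOS3 did not pass the filter, and DDAH2 was below 1 CPM in all groups.

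Of 11 polyamine genes, which carry ornithine onwards, 6 fell, 2 rose and 3 did not pass, 72.7% called against 67.3% of all genes. AMD1, which supplies the aminopropyl donor, fell from 440.0 to 284 CPM (-0.63 ± 0.05, adjusted p = 5.21e-10), as did the ornithine decarboxylase antizyme OAZ2 (-0.44 ± 0.08, adjusted p = 5.77e-05) and spermine synthase, SMS (-0.25 ± 0.05, adjusted p = 9.44e-05). The 2 that rose take polyamines apart or mark them for export: SAT1, the spermidine acetyltransferase, went from 24.2 to 57.5 CPM (1.24 ± 0.13, adjusted p = 2.28e-07) and SMOX, spermine oxidase, from 10.4 to 15.2 CPM (0.54 ± 0.11, adjusted p = 1.22e-04). PAOX, which also oxidises polyamines, was among the 6 that fell.

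Transporters of proline, arginine, ornithine and aspartate gave 6 lower, 1 higher and 3 not passed of 10 tested, 70% called against 67.3% of all genes. SLC36A1, a lysosomal and plasma membrane carrier of proline, fell by 0.61 ± 0.06 (adjusted p = 6.30e-09), SLC7A2, a carrier of arginine, by 0.60 ± 0.08 (2.39e-07) and SLC25A29, a mitochondrial carrier of basic amino acids, by 0.86 ± 0.12 (1.32e-06) on the log2 scale. SLC38A2, the stress-inducible carrier of small neutral amino acids, rose a little (0.14 ± 0.05, adjusted p = 0.0261); this call was lost within the larger set (0.0590) and without 102xPR induced replicate 1 or uninduced replicate 2 or 3 (up to 0.102). Of 4 synthetases that charge proline and arginine tRNAs 3 rose, where 33.8% of all genes did. These were PARS2 (0.65 ± 0.07, adjusted p = 3.18e-08), RARS1 (0.41 ± 0.05, adjusted p = 4.33e-07) and RARS2 (0.14 ± 0.06, adjusted p = 0.0325). The fourth, EPRS1, which charges glutamate and proline, had -0.13 ± 0.06. The call on RARS2 was lost in 8 of 16 alternative settings, among them the removal of 102xPR uninduced replicates 1 or 2, or of induced replicates 2 or 3, with adjusted p-values of up to 0.141 over the 8.

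The transcription factors known to drive several of these genes moved in different directions. ATF4 mRNA rose from 603 to 1006 CPM (0.74 ± 0.06, adjusted p = 6.07e-11), with its target and partner DDIT3 (2.04 ± 0.15, adjusted p = 3.74e-10) and CEBPB (0.55 ± 0.09, adjusted p = 1.15e-05), while MYC fell (-0.61 ± 0.11, adjusted p = 8.53e-05). The other amino acid synthesis enzymes, many of them known ATF4 targets, divided: 6 of 11 rose and 4 fell, where 33.8% of all genes rose and 33.4% fell. ASNS (0.81 ± 0.09, adjusted p = 2.68e-07), SHMT2 (0.46 ± 0.06, adjusted p = 1.10e-07) and MTHFD1L (0.57 ± 0.08, adjusted p = 2.69e-06) rose, and SHMT1 (-0.46 ± 0.06, adjusted p = 1.13e-07), PHGDH (-0.31 ± 0.08, adjusted p = 0.00111) and PSAT1 (-0.20 ± 0.06, adjusted p = 0.00547) fell. Within the larger set the calls on PSAT1 (0.0775) and MTHFD2 (-0.12, adjusted p = 0.156) were lost. Of the 7 tested proline and arginine enzymes 0 rose.

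**Figure D4:**
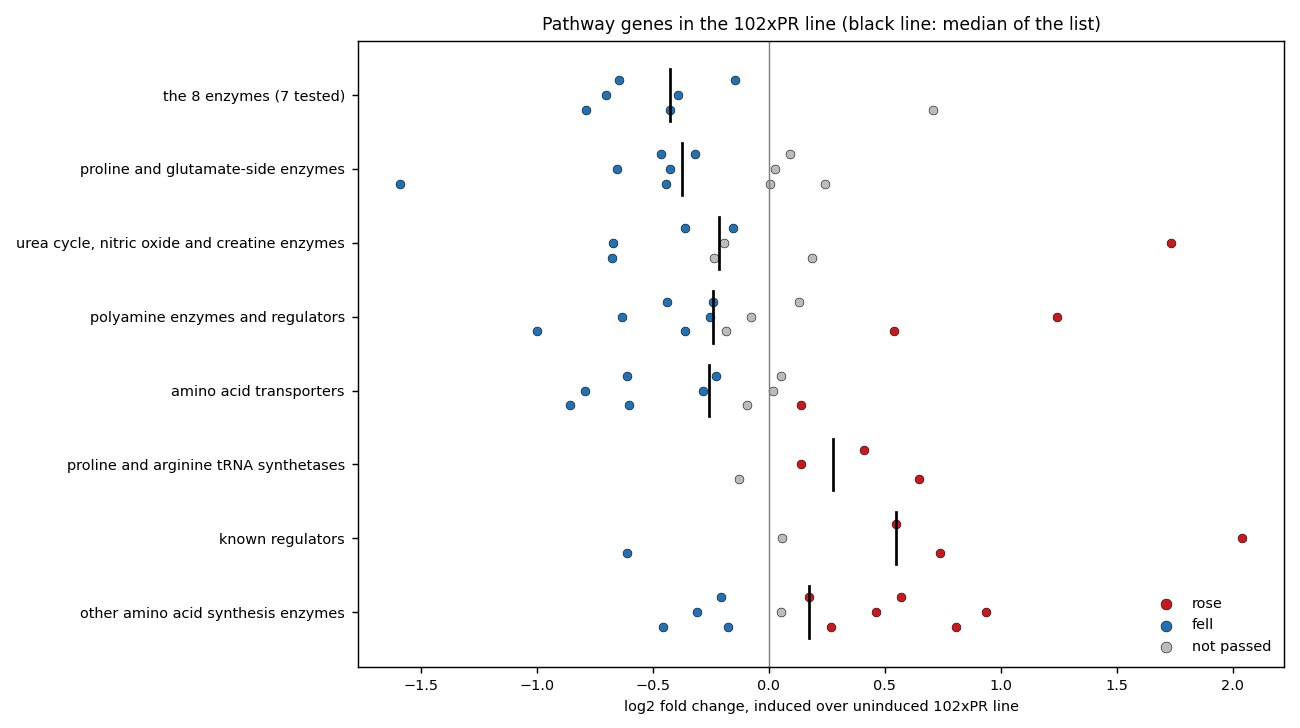
Log2 fold change of induced over uninduced 102xPR cells (horizontal axis) for every tested gene of the 8 enzymes and of 7 further lists (vertical axis); red points rose, blue points fell and grey points did not pass, and black lines are medians. The enzyme, urea cycle, polyamine and transporter lists have medians below 0, and the synthetase, regulator and other amino acid lists above it.

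In the poly-adenylate line the calls among these lists were few and all downward, where 0.265% of all tested genes were called lower: the carriers SLC7A1 (-0.24 ± 0.05, adjusted p = 0.0309) and SLC38A2 (-0.31 ± 0.05, adjusted p = 0.0234), ATF4 (-0.27 ± 0.06, adjusted p = 0.0309), PSAT1 (-0.29 ± 0.06, adjusted p = 0.0309), MTHFD2 (-0.23 ± 0.05, adjusted p = 0.0422) and ASNS (-0.38 ± 0.09, adjusted p = 0.0490). Each of the 6 was lost in between 4 and 11 of 16 alternative settings, with adjusted p-values of up to 0.218. Leaving out poly-adenylate uninduced replicate 2, induced replicate 2 or induced replicate 3 ended all 6 calls, induced replicate 1 ended 5, uninduced replicate 3 ended 4 and uninduced replicate 1 ended 1. In the ChFP line 0 genes of the 7 pathway lists were called by edgeR and 5 by DESeq2, with 15 at an unadjusted p under 0.05.

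By pattern over the 6 group means of log2 CPM, each gene centred on its own mean, the genes most like OAT included CYP51A1 and STIMATE, with root mean square differences of 0.016 and 0.030 on the log2 scale. Those most like ARG2 were LANCL1, CDC42SE2 and MAPK9 (0.009, 0.010 and 0.019), and those most like ASL were CTSV, RPS6KA1 and ATP1B3 (0.018, 0.019 and 0.023). ASS1 was nearest to SNX33, GSTM4 and RIN3 (0.025, 0.026 and 0.031), ALDH18A1 to TDG, CDCA3 and DDIAS (0.017, 0.018 and 0.020) and PYCR1 to PPDPF, TBC1D16 and TSPAN15 (0.047, 0.048 and 0.050). The nearest to PYCR3 were SHISA2, SLIT2 and CALCB at 0.29 to 0.30. Its group means of log2 CPM lay from -2.16 to -0.86, and no gene at so low a level was among the candidates. Whether it has a closer match was therefore not tested. Among the members themselves OAT and ASL were the closest pair, at 0.054, and ALDH18A1 and PYCR1, which act in the same route, were 0.28 apart. The candidates were 10481 genes with a mean log2 CPM of at least 3, all measured in the same libraries.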

How the data were processed

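Poly(A) RNA of 18 HEK293T libraries was read as 100 bp single reads, per the labels' protocols, and the authors deposited whole-number counts per gene that were not normalized. The submitters' processing notes name build hg38, HISAT2 2.1.0, DESeq2 1.30.1, featureCounts, bcl2fastq 2.20.0.422 and cutadapt 3.4. The sources used here do not give the annotation or strand setting, so overlapping genes are uncertain. The authors' tables of comparisons, whose contrasts are not stated there, were not used. Here edgeR 4.0.16 (R 4.3.3) was fitted over all 18 libraries (filterByExpr, minimum count 10, TMM factors, robust quasi-likelihood, 1 term per group, threshold 0.05 after Benjamini-Hochberg adjustment over 15447 genes). The script was tested on simulated data in which few genes changed, all with the same spread. That test did not cover a change in most genes or a split into library sets. Values are CPM on TMM-scaled library totals, with mean and SD over 3 libraries; log2 fold changes carry the standard error of the fit. Entries with no symbol (550, 0.0410% of counts) were kept and met the same filter as all others. They were left out only of the search for genes close in pattern. Levels per kilobase use GENCODE basic exon lengths, and coordinates and promoters are RefSeq's (GRCh38.p14). Alternatives were other scalings, filters and samples, DESeq2 1.42.0, library set, replicate number and leaving out each library.

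The members, pathway lists, tests and alternatives were chosen with earlier results of these data known. Named with values were all 8 members, the genes of each pathway list with the 3 smallest adjusted p each way on induction, list genes below 1 CPM, and the 3 genes closest in pattern to each member; the ratio partner ASNS, AGMAT, PAOX, EPRS1, VTI1B and the genes named as overlapping were named after their values were seen. Some genes of these lists are not reported here.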

Additional observations from a re-analysis of the deposited data

Results flagged for a closer look

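The responses of the members to induction differed between lines by the test of the difference itself (edgeR's quasi-likelihood test). Against the ChFP response, the differences of the 102xPR response were -0.78 for PYCR1, -0.75 for ASL, -0.55 for OAT, -0.52 for ASS1 and -0.36 for ARG2 on the log2 scale. Against the poly-adenylate response the differences were -0.89 for PYCR1, -0.73 for ASL, -0.69 for OAT, -0.35 for ASS1, -0.33 for ARG2 and -0.17 for ALDH18A1. With 3 libraries a group, single outlying libraries were not tested for; the 46 counts of PYCR3 in replicate 3 of induced 102xPR cells are given as a value.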

How the results depend on the processing

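In the 102xPR line the count of members called was 6 in the fit reported and 6 or 7 under every alternative run. The member added was PYCR3, in opposite directions. Its log2 fold change was -3.21 without induced replicate 3, and 2.30 within the larger set, where replicate 3 is the only induced library. The alternatives covered 1193 single-member values: 1156 kept their side of the threshold and, if called, their direction, 20 lost their call, 15 gained one and 2 reversed. Both reversals were PYCR3 without 102xPR induced replicate 3, at -3.21 for induced against uninduced 102xPR cells and -2.92 for the 102xPR minus the poly-adenylate response; with each library left out in turn the highest values were 1.295 and 1.59. Of the 1156, 60 were uncalled values that changed sign. In the ChFP line 1 call became 0 with library totals, with no filter, with only the groups compared and with library set as a covariate, and 2, PYCR1 and OAT, with library set and replicate block together. For induced poly-adenylate against induced ChFP cells 1 call became 0 with library totals. For uninduced 102xPR against uninduced ChFP cells 0 became 1 with only the groups compared, and for the poly-adenylate minus ChFP response 0 became 1 with library set and replicate block together; the cause was not tested. Leaving out each library in turn gave 6 to 7 calls in the 102xPR line, 0 to 1 in the ChFP line, 0 to 0 in the poly-adenylate line, 5 to 5 for the 102xPR minus ChFP response, 5 to 7 for the 102xPR minus poly-adenylate response, 0 to 0 for the poly-adenylate minus ChFP response, 5 to 6 and 0 to 1 for induced 102xPR and induced poly-adenylate against induced ChFP cells, and 0 to 0 for both uninduced comparisons.

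Of 781 values of called pathway genes under the alternatives, 700 kept their call, 81 lost it and 0 reversed. The deviations of same-numbered libraries from their group means had a median correlation of 0.04 (range -0.26 to 0.21, over 0.1 in 8 of 45 pairs). Libraries of different number were not compared, so whether replicate numbers pair the samples was not tested. The replicate block left the count of members at 6 in the 102xPR line, 1 in the ChFP line and 0 in the poly-adenylate line, and changed no other count of members. Fits within the larger set could not be made for comparisons with uninduced ChFP cells, which it does not hold. Depth limits PYCR3 and PRODH.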

Other observations

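Before induction, 5 of the 11 tested genes of the other amino acid synthesis enzymes (PSAT1, PSPH, MTHFD2, ASNS and GPT2, which serve serine, one-carbon, asparagine and alanine metabolism) were higher in the poly-adenylate line than in ChFP cells, 0 were lower, and the median log2 difference was 0.32, where 0.0971% of all tested genes were called higher. Of the proline and arginine enzymes 0 of 7 were called in that comparison, with a median of 0.08; the lists were set side by side after their values were seen. The 3 genes of the list that fell on induction of poly-adenylate (PSAT1, MTHFD2 and ASNS) went from 362 to 297, from 244 to 208 and from 159 to 122 CPM. Both comparisons use the same uninduced poly-adenylate libraries, so they are not independent. High values in those libraries would give both a higher level before induction and a fall on it. The calls of this list before induction were not run under the alternatives.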
